A study of Homo sapiens with 24 samples.

Results

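The genes described here are the expressed members of the ZNF series, the human genes whose symbol in the platform annotation is ZNF and a number. They were chosen by their level in the deposited values, the same arrays described here: the platform symbol had to be ZNF, digits and at most 1 letter, only probe sets with a single symbol were used, and the median of a gene's probe sets had to average 8 or more on the log2 scale over the 24 arrays from 4 or more probe sets. Of the 22260 genes on the array with such probe sets, 516 carried a ZNF symbol of this form and 146 met the rule. The other 370 comprised 346 with a lower mean and 24 with fewer probe sets. The rule used the overall level and no contrast between groups, so a member's level is not a result here. The 24 arrays include those with digoxin, so a member just inside the limit may have met it through groups where it was high. In the gene values used below, ZNF653 had group means of 8.3 to 8.5 with digoxin and 7.78 to 8.15 without. Just inside the limit were ZNF687 at 8.005, ZNF653 at 8.017 and ZNF202 at 8.025, and just outside were ZNF785 at 7.983, ZNF300 at 7.995 and ZNF385A at 7.998.

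AC16 is an immortalised human line labelled as ventricular cardiomyocytes. All cells were synchronised with 100 nM dexamethasone, a glucocorticoid, for 2 h. The 8 groups of 3 arrays were untreated cells at T0, cells at T4 that had received vehicle, 0.5 µM or 5 µM digoxin, untreated cells at T16, and cells at T20 that had received vehicle, 0.5 µM or 5 µM digoxin. Digoxin is a cardiac glycoside that inhibits the sodium pump. The sample labels place each treated collection 4 h after treatment, whereas the growth protocol lists several times after treatment, and the labels were followed. RNA was hybridised to whole-transcript arrays. Nothing in the labels states that the 3 replicates were grown apart, so the tests cover the scatter among these arrays, which may be technical.

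C2H2 zinc finger proteins carry tandem fingers in which a zinc ion is held by paired cysteines and histidines, and most fingers read a short stretch of DNA. The largest class in humans adds a KRAB box, which binds the corepressor TRIM28 and through it histone methyltransferase and heterochromatin proteins that silence transposable elements. Other members have a SCAN or no extra domain and act as promoter activators, chromatin partners or RNA-binding proteins.

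Of the members, 144 were annotated as protein coding and 2, ZNF252P and ZNF767P, as transcribed pseudogenes. The gene with platform symbol ZNF259 is now named ZPR1. Chromosome 19 held 51 of the members, chromosome 1 held 12 and chromosome 7 held 11. They had 4 to 39 probe sets each with a median of 8, and their mean levels lay between 8.01 and 16.32 with a median of 9.33. ZNF207, which encodes a spindle assembly protein that binds BUB3, had the top value, followed by ZNF146, a protein made almost only of fingers, at 14.64 and ZNF281 at 14.0. Probes differ in brightness, so these values rank array signals and not transcript numbers. Paralogous ZNF genes share finger sequence, so how far single probe sets read related transcripts is uncertain for any member.

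Before the values, the upstream sequences of 4 members are shown, because these genes head the results: ZNF367 and ZNF609 as the pair with the highest, and ZNF786 and ZNF266 as the pair with the lowest, mean 5 µM differences among members that passed the test in the same direction at both times. Each is the 250 bases before the annotated start from RefSeq on GRCh38.p14, printed 5′ to 3′ on the strand of the gene. Capitals mark matches on either strand to any of 7 motifs: the E-box CACGTG, the cyclic AMP element TGACGTCA, the ETS core CCGGAAG, the GC box GGGCGG, the CCAAT box, the palindromic site of NRF1 and the core of the ZNF143 site. ZNF367 is at chr9:96418371-96418620 on the minus strand, ZNF609 at chr15:64460328-64460577 on the plus strand, ZNF786 at chr7:149090719-149090968 on the minus strand and ZNF266 at chr19:9435574-9435823 on the minus strand.
ZNF367: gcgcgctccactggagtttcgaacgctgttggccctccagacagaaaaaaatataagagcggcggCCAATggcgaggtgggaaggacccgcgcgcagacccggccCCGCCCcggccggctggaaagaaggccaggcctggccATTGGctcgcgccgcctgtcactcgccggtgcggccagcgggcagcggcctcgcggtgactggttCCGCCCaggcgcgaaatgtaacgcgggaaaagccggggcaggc
ZNF609: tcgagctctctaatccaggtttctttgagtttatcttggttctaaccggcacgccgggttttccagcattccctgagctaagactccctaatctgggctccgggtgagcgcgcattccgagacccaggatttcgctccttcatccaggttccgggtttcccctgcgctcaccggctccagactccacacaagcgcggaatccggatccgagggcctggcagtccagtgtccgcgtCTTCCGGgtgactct
ZNF786: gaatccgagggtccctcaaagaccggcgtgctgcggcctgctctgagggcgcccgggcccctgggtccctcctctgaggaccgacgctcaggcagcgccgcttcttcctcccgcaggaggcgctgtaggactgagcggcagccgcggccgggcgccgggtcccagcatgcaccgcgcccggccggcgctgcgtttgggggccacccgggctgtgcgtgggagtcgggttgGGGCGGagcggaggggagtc
ZNF266: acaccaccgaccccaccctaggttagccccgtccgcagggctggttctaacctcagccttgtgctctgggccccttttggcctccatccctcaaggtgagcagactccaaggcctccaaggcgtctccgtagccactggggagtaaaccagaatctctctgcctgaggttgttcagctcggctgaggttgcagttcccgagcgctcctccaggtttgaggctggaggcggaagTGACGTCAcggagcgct
The capitals in ZNF367 are 2 CCAAT boxes and 2 GC boxes, in ZNF609 1 ETS core, in ZNF786 1 GC box and in ZNF266 1 cyclic AMP element.

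RefSeq promoters matched 131 of the 146 members. The ETS core was in 34.4% of the matched members, against 16.8% of the promoters of all tested genes and 8.8% of all 27305 promoters. The ZNF143 site was in 9.9% of members, against 4.2% of tested genes and 1.9% of all promoters. ZNF143 is itself a member, an activator of small nuclear RNA and coding gene promoters. The cyclic AMP element was in 6.9% of members, 3.0% of tested genes and 1.8% of all promoters, and the NRF1 site in 3.8%, 2.1% and 1.1%. The E-box, the site of the clock factors CLOCK and BMAL1, went the other way, with 4.6% of members, 9.2% of tested genes and 6.5% of all promoters. GC boxes were about as common in members, at 67.2%, as in tested genes, at 67.5%, against 42.3% of all promoters, and CCAAT boxes were in 41.2%, 35.8% and 33.0%. Among the 47 members on chromosome 19 with a promoter, 31.9% held the ETS core and 14.9% the ZNF143 site. A match describes these letters and was not tested as a binding site.

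All 146 members passed the filter on low values that 11764 genes passed, and the values below are per-gene summaries of the log2 probe set values after quantile normalisation. A difference is a mean of 3 arrays minus a mean of 3 arrays, given ± its standard error, and a gene is said to rise or fall where limma's p, adjusted over all tested genes, was under 0.05. The deposited values reach 19.93, above what a 16-bit scanner can give in log2, so a difference of 1 on this scale should not be read as a doubling. In bulk RNA, fewer cells of a type and less RNA per cell cannot be told apart. Replicate arrays correlated at 0.9922 to 0.9949 across genes. None of 14 cardiomyocyte markers, TNNT2 and MYH7 among them, passed the filter, with means of 2.92 to 5.51. By contrast, 11 of 12 fibroblast and 4 of 6 smooth muscle markers passed. Of the markers on the array, 1 of 5 for endothelium and 0 of 4 for leukocytes passed. The labelled cell type was thus not borne out by its defining markers.

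The group means of a member spanned 0.21 to 2.35, with a median range of 0.76 against 0.64 over all tested genes. A range of 1 or more was found in 35 members, or 24%, against 19.5% of all tested genes. The vehicle group at T4 held the highest mean of 42 members, or 28.8%, against 14.7% of all tested genes. The untreated group at T16 held the lowest mean of 39 members, or 26.7%, against 19.8%, and T0 that of 27, or 18.5%, against 11.5%.

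At T4, 5 µM digoxin was followed by more falls than rises among the members. With 5 µM, 37 members fell and 19 rose against vehicle, together 38.4% of the members, where 22.1% of all tested genes were called, 12.9% lower and 9.18% higher. The median difference was -0.19 for members and -0.01 for all tested genes. The largest falls were in ZNF266, ZNF621 and ZNF786, and the largest rises in ZNF367 and ZNF143. Where a gene is called KRAB or SCAN here, that is textbook knowledge and was not read from sequence.

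ZNF367, which encodes an activator of fetal globin genes in erythroid cells, had T4 values of 11.71, 12.10 and 11.96 with vehicle, 13.16, 13.44 and 13.17 with 0.5 µM and 13.82, 13.75 and 14.03 with 5 µM. Each digoxin array lay above every vehicle array, and each 5 µM array above every 0.5 µM array. The difference from vehicle was 1.94 ± 0.13 with 5 µM (adjusted p = 1.28e-08) and 1.33 ± 0.13 with 0.5 µM (adjusted p = 2.99e-06), with all 7 probe sets higher at both doses.

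ZNF143 had 11.30, 11.28 and 11.40 with 5 µM at T4, against 10.46, 10.35 and 10.29 with vehicle. The groups did not overlap, and all 21 probe sets were higher. The difference was 0.96 ± 0.11 (adjusted p = 3.82e-06). ZNF791, a KRAB protein gene, rose by 0.61 ± 0.12 (adjusted p = 0.00138), and ZNF335, part of a histone methyltransferase complex, by 0.60 ± 0.15 (adjusted p = 0.00678).

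ZNF266, a KRAB protein gene, had 8.78, 8.97 and 8.77 with 5 µM at T4, against 10.09, 10.25 and 10.43 with vehicle. The lowest vehicle array was above every 5 µM array by more than the spread of either group. It fell by 1.42 ± 0.14 (adjusted p = 6.73e-07), with 9 of 10 probe sets lower. ZNF621, also KRAB, had 7.72, 7.41 and 7.44 with 5 µM, against 8.71, 8.75 and 9.02 with vehicle, again without overlap. It fell by 1.30 ± 0.12 (adjusted p = 4.36e-07).

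ZNF786, a KRAB gene, had a wider spread, with 7.90, 7.89 and 8.64 at 5 µM against 9.04, 9.75 and 9.52 with vehicle at T4. It fell by 1.30 ± 0.33 (adjusted p = 0.0074), with 7 of 7 probe sets lower. ZNF221, ZNF436, ZNF215 and ZNF252P fell by 1.15 ± 0.29, 1.10 ± 0.20, 1.09 ± 0.13 and 1.08 ± 0.15 (adjusted p = 0.00672, 0.000493, 1.04e-05 and 2.77e-05). The last of these is the pseudogene, and all 10 of its probe sets were lower.

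With 0.5 µM at T4, 14 members fell and 10 rose, 16.4% in all where 9.76% of all tested genes were called, 4.55% lower and 5.21% higher, and the median difference was -0.11 for members against 0.01. With arrays centred on their medians, 10 fell and 12 rose, where 377 of all tested genes fell and 802 rose. The same vehicle arrays served both doses, so the dose results are set side by side. ZNF786, ZNF621 and ZNF266 fell by 1.21 ± 0.33, 0.94 ± 0.12 and 0.89 ± 0.14 with 0.5 µM (adjusted p = 0.0233, 5.2e-05 and 0.000323). ZNF143 rose by 0.56 ± 0.11 (adjusted p = 0.00237), and ZNF335 by 0.53 ± 0.15 (adjusted p = 0.0295).

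**Figure D1:**
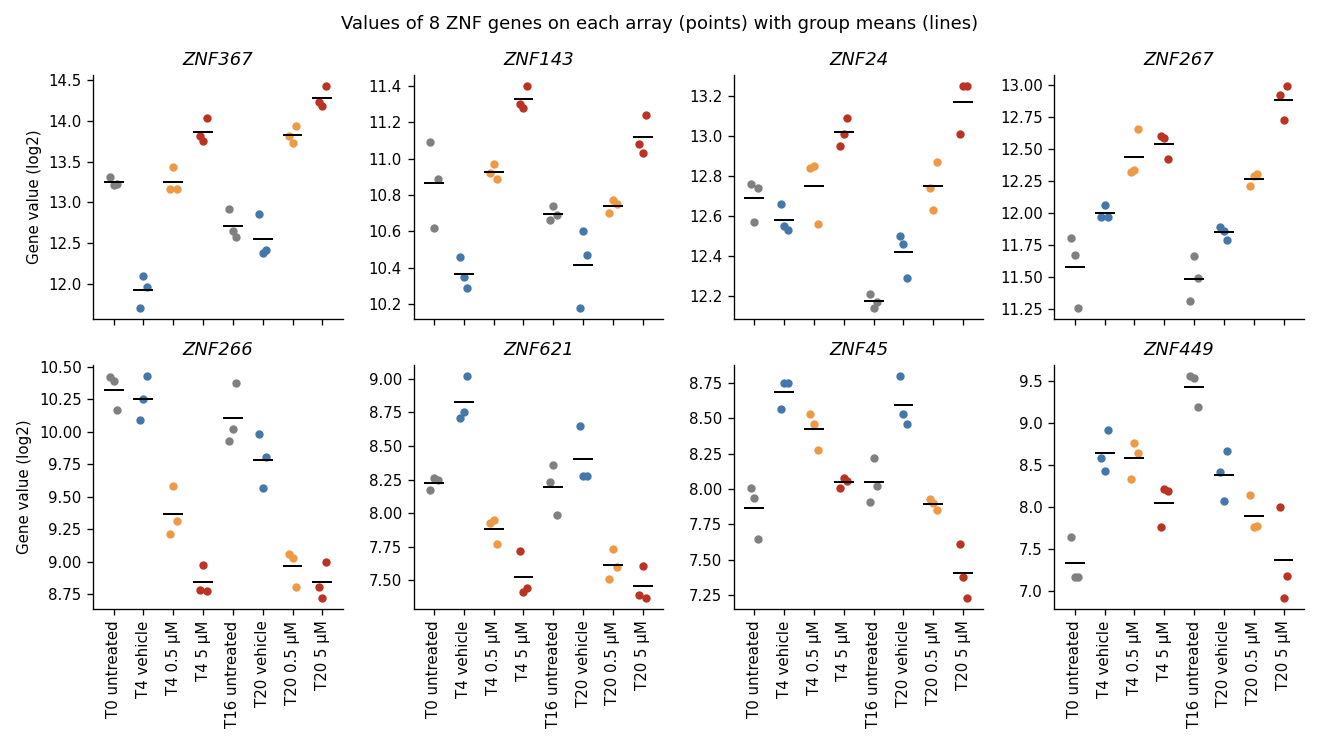
Gene values (log2) of 8 ZNF genes on each of the 24 arrays, with the 8 groups along the horizontal axis, 1 point per array and a line at each group mean. ZNF367 lies at 11.71 to 12.10 with vehicle at T4 and at 13.75 to 14.03 with 5 µM, and ZNF266 runs the other way.

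At T20, 5 µM digoxin changed about as many members as at T4, with a more even split. Against vehicle, 31 members fell and 27 rose, 39.7% in all where 26.1% of all tested genes were called, 13.2% lower and 12.9% higher. With arrays centred on their medians instead, 23 fell and 32 rose, 37.7% in all. On that scale 26.5% of all tested genes were called, 1115 lower and 2008 higher. The median difference was -0.10 for members and -0.01 for all tested genes. ZNF367, ZNF675, ZNF460, ZNF609 and ZNF267 rose by over 1, and ZNF786, ZNF45 and ZNF449 fell by over 1.

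ZNF367 had 14.23, 14.18 and 14.43 with 5 µM at T20, against 12.86, 12.38 and 12.41 with vehicle. The groups were far apart, and the difference was 1.73 ± 0.13 (adjusted p = 2.05e-08). ZNF675, whose product inhibits TRAF6 signalling, had 10.64, 11.17 and 10.92 with 5 µM, against 9.33, 9.41 and 10.06 with vehicle. One vehicle array was well above the other pair but below the 5 µM arrays, and the difference was 1.31 ± 0.27 (adjusted p = 0.00136).

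The KRAB gene ZNF460 had 13.05, 12.82 and 12.89 with 5 µM at T20, against 12.01, 11.96 and 11.54 with vehicle, a rise of 1.09 ± 0.16 (adjusted p = 3.95e-05). All 5 probe sets were higher. ZNF267, also KRAB, had 12.92, 12.72 and 12.99 with 5 µM, against 11.89, 11.86 and 11.79 with vehicle, a rise of 1.03 ± 0.12 (adjusted p = 4.82e-06). ZNF24, a SCAN protein that represses VEGFA, rose by 0.75 ± 0.10 (adjusted p = 1.03e-05).

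The KRAB gene ZNF45 had 7.61, 7.38 and 7.23 with 5 µM at T20, against 8.80, 8.53 and 8.46 with vehicle. The groups did not overlap, and all 11 probe sets were lower. It fell by 1.19 ± 0.12 (adjusted p = 4.7e-07). ZNF449, a SCAN protein gene, had 8.00, 6.92 and 7.18 with 5 µM, against 8.42, 8.07 and 8.67 with vehicle, and fell by 1.02 ± 0.23 (adjusted p = 0.00306). One of its 5 µM arrays was close to the lowest vehicle array.

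ZNF786 fell by 1.62 ± 0.33, ZNF266 by 0.95 ± 0.14, ZNF621 by 0.94 ± 0.12 and ZNF490 by 0.90 ± 0.14 with 5 µM at T20 (adjusted p = 0.00111, 4.78e-05, 1.34e-05 and 9.08e-05). With 0.5 µM at T20, 18 members fell and 14 rose, 21.9% in all where 10.8% of all tested genes were called, 4.79% lower and 5.98% higher, and the median was -0.13 for members against 0.01. With arrays centred on their medians, 11 fell and 17 rose, where 388 of all tested genes fell and 839 rose. ZNF367 rose by 1.28 ± 0.13 (adjusted p = 3.79e-06), and ZNF653 and ZNF407 by 0.67 ± 0.13 and 0.67 ± 0.15 (adjusted p = 0.00141 and 0.00631). ZNF653 lay just inside the limit on the mean, which counted its digoxin arrays. ZNF786 fell by 1.73 ± 0.33 and ZNF79 by 0.91 ± 0.15 (adjusted p = 0.00166 and 0.000594).

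**Figure D2:**
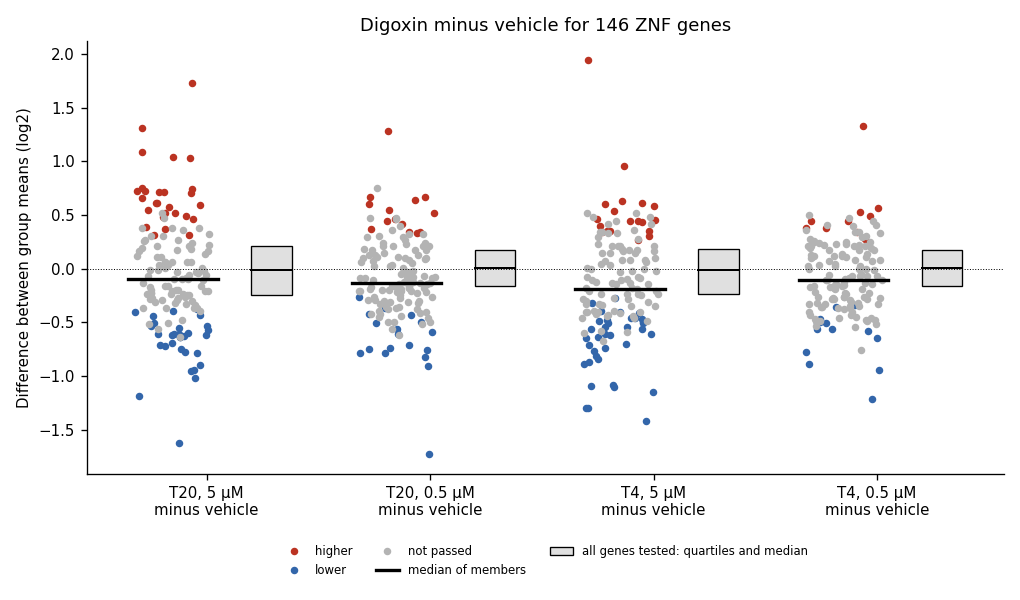
Differences (log2) between digoxin and vehicle arrays for the 146 members in the 4 comparisons, 1 point per gene, with those that rose in red and fell in blue, the median of members as a line and the quartiles of all tested genes as a box. The member medians of -0.10, -0.13, -0.19 and -0.11 from left to right lie below the all-gene medians of -0.01, 0.01, -0.01 and 0.01.

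These differences are relative to the other probe sets of an array. The poly-A spike-in control probe sets were higher in digoxin arrays than in vehicle arrays, by 0.70 with 5 µM and 0.31 with 0.5 µM at T20, and by 0.25 with 5 µM and 0.12 with 0.5 µM at T4. Scaling to them moved the median of all tested genes to -0.72, -0.31, -0.26 and -0.12 in the same order. Then 2 members rose and 114 fell with 5 µM at T20, 79.5% in all where 82.4% of all tested genes were called. Of all tested genes, 144 were higher and 9545 lower there. With 5 µM at T4, 2 members rose and 65 fell, 45.9% where 26.5% of all tested genes were called, 241 higher and 2873 lower. ZNF367 remained higher in all 4 digoxin comparisons, with ZNF675 at T20 and ZNF143 at T4 beside it for 5 µM. Combining probe sets by their median instead of median polish gave 21 member calls with 5 µM at T20 and 13 at T4. There 11.6% and 7.23% of all genes were called. Some of these calls were new: 10 of the 27 rises and 8 of the 31 falls at T20 were kept. At T4, 3 of the 19 rises and 7 of the 37 falls were kept. ZNF143, ZNF786, ZNF221, ZNF436, ZNF215, ZNF791 and ZNF335 lost their T4 calls with 5 µM. ZNF675, ZNF267, ZNF45, ZNF449 and ZNF621 lost those at T20. ZNF367 and ZNF266 kept their calls in all 4 comparisons with that summary.

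The T20 and T4 comparisons share no arrays. With 5 µM, 12 members rose at both times, 44.4% of the 27 at T20 and 63.2% of the 19 at T4, where the shares over all tested genes were 48.1% and 67.4%. They were ZNF143, ZNF24, ZNF267, ZNF281, ZNF317, ZNF330, ZNF367, ZNF507, ZNF592, ZNF609, ZNF791 and ZPR1. Falls at both times numbered 21, 67.7% of the 31 at T20 and 56.8% of the 37 at T4, where all tested genes gave 57.7% and 59.2%. No member was called in opposite directions. With 0.5 µM, ZNF267, ZNF281, ZNF367, ZNF507 and ZNF653 rose at both times, 35.7% of the 14 at T20 and 50.0% of the 10 at T4, where all tested genes gave 48.9% and 56.1%. Falls at both times numbered 8, ZNF266, ZNF621, ZNF786 and ZNF252P among them. These were 44.4% of the 18 at T20 and 57.1% of the 14 at T4, where all tested genes gave 50.5% and 53.3%.

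The difference of the 5 µM effect between T20 and T4 passed for 0 members in limma, where 0.57% of all tested genes were called. At an unadjusted p under 0.05 it was 23 members, and 10.8% of all tested genes. The smallest adjusted p was 0.052, for ZNF2. For 0.5 µM it was also 0 members, 8 at an unadjusted p under 0.05, against 0.0085% and 5.6% of all tested genes.

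The members were also read by role, with lists written by hand. KRAB boxes were not read from sequence, so the list of factors below need not hold every member without one. The SCAN gene ZNF449, which fell with 5 µM at T20, is outside that list. So are ZNF174, ZNF280C, ZNF512 and ZNF526, which fell with 5 µM at both times. The list thus gives no contrast between members with and without a KRAB box. Of 17 members listed as transcription factors or chromatin partners without a KRAB box, 8 rose and 0 fell with 5 µM at T20, and 7 rose and 1 fell at T4. Among all tested genes 12.9% rose and 13.2% fell at T20, and 9.18% rose and 12.9% fell at T4. With the median of probe sets, 4 of the list rose at T20 and 3 at T4, with no falls. The list's median differences were 0.27 and 0.21, against -0.20 and -0.26 for the 118 members in no role list. Of those, 17 rose and 30 fell at T20 and 11 rose and 33 fell at T4. The lists were chosen with earlier results of these data known, so this contrast is not independent of the differences it shows. Scaled to the poly-A controls, the factor list's medians turned to -0.43 and -0.04, above the all-gene medians of -0.72 and -0.26, and 1 and 2 of its members were called higher with 11 and 2 called lower. On that scale the 118 members in no role list had 1 higher and 95 lower at T20, and 0 higher and 58 lower at T4. All tested genes had 144 higher and 9545 lower at T20, and 241 higher and 2873 lower at T4, on the same scale. With the median of probe sets those members had 6 rises and 9 falls at T20, and 3 rises and 7 falls at T4. With 0.5 µM the list had 3 rises at T20 and 6 at T4, with no falls. All tested genes gave 5.98% higher and 4.79% lower at T20 with that dose, and 5.21% and 4.55% at T4.

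Within this list, ZNF609, which works with cohesin loader NIPBL and Integrator in mouse neural progenitors, had 8.40, 8.67 and 8.70 with 5 µM at T20, against 7.48, 7.80 and 7.38 with vehicle. The groups did not overlap. It rose by 1.04 ± 0.18 at T20 and 0.63 ± 0.18 at T4 (adjusted p = 0.000318 and 0.0177). ZNF592, a partner of ZMYND8, rose by 0.49 ± 0.12 and 0.46 ± 0.12 (adjusted p = 0.00628 and 0.0111), whereas ZNF687 of the same complex had differences of 0.14 and 0.42 that did not pass. ZNF217, a CoREST-associated oncogene product, rose by 0.71 ± 0.11 at T20 (adjusted p = 0.000105), with 0.21 ± 0.11 at T4 not passing. ZNF281, a factor of stem cells and epithelial-mesenchymal transition, rose in all 4 digoxin comparisons, by 0.34 to 0.46. ZNF318 was the single fall, by 0.32 ± 0.09 at T4 (adjusted p = 0.0125).

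**Figure D3:**
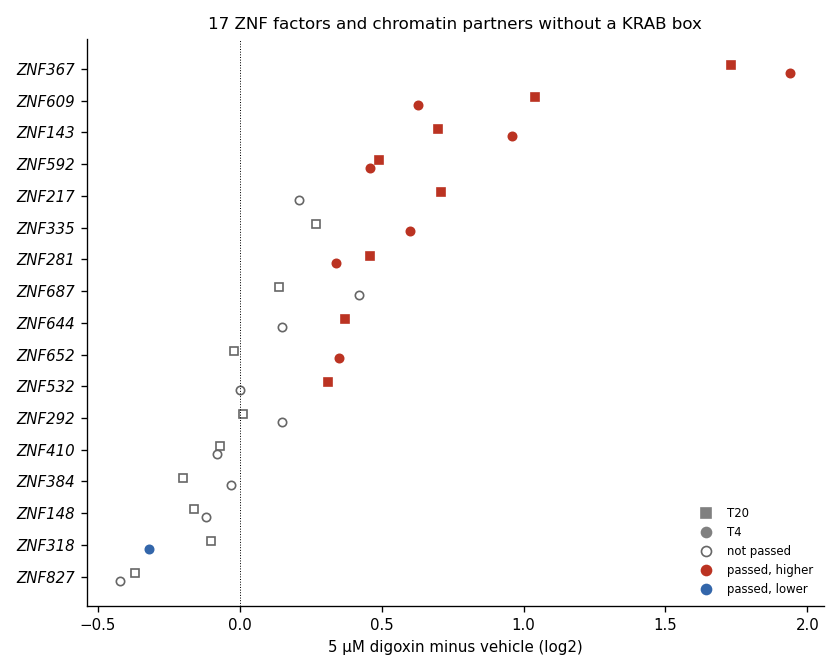
Differences (log2) between 5 µM digoxin and vehicle for the 17 members on the hand-written list of factors without a KRAB box. Squares are T20 and circles T4, filled where the test passed and open where it did not. ZNF367 lies farthest to the right at 1.73 and 1.94, and ZNF318 is the one filled blue point; scaled to poly-A controls the median of this list was below 0.

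Of 10 members with RNA, ribosome, ubiquitin or SUMO roles, 2 rose and 1 fell with 5 µM at T20, and 1 rose and 3 fell at T4, which can be set beside the all-gene shares above. Scaled to the poly-A controls, 0 were higher and 8 lower at T20, and 0 higher and 5 lower at T4. That scale called 82.4% of all tested genes at T20 and 26.5% at T4, mostly lower. With the median of probe sets none was higher at either time, and 1 was lower at T20. ZNF330, a nucleolar protein gene, rose by 0.61 ± 0.10 at T20 and 0.44 ± 0.10 at T4 (adjusted p = 0.000109 and 0.0027). ZNF451, a SUMO ligase gene, rose by 0.48 ± 0.11 at T20 (adjusted p = 0.00262). ZNF207 had 15.96, 16.01 and 16.01 with 5 µM at T20, against 16.43, 16.31 and 16.43 with vehicle, and fell by 0.40 ± 0.08 (adjusted p = 0.000987). ZNF346, a double-stranded RNA-binding protein gene, fell by 0.51 ± 0.14 at T4 (adjusted p = 0.0142), with -0.10 ± 0.14 at T20. Of the retroelement repressors listed, ZNF649 was the one member, and with median polish none of its digoxin differences passed.

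They were read by position as well. Of the 51 members on chromosome 19, 9 rose and 9 fell with 5 µM at T20 and 6 rose and 12 fell at T4, and of the 95 elsewhere 18 rose and 22 fell at T20 and 13 rose and 25 fell at T4. The shares on chromosome 19 were 17.6% higher and 17.6% lower at T20 and 11.8% and 23.5% at T4, where all tested genes gave 12.9% and 13.2%, and 9.18% and 12.9%. On the poly-A scale, 1 rose and 36 fell on chromosome 19 at T20 and 0 rose and 23 fell at T4. That scale called 82.4% of all tested genes at T20 and 26.5% at T4, mostly lower. There were 9 pairs of members that are next to each other among the protein-coding genes of chromosome 19, and the differences had the same sign in 4 of them with 5 µM at T20 and in 5 at T4. ZNF490 fell by 0.90 at T20 and 0.81 at T4 while its neighbour ZNF791 rose by 0.57 and 0.61. ZNF45 and ZNF221 were both lower, with differences of -1.19 and -0.64 at T20 and -0.64 and -1.15 at T4, the T20 value of ZNF221 not passing.

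The doses were also compared directly. At T20, 7 members differed between 5 µM and 0.5 µM, 4.8% where 2.46% of all tested genes were called, 1.22% higher and 1.23% lower. ZNF791 had 12.76, 12.57 and 12.81 with 5 µM, against 12.09, 12.14 and 11.92 with 0.5 µM, a difference of 0.66 ± 0.12 (adjusted p = 0.00564). ZNF267 and ZNF460 were 0.61 ± 0.12 and 0.61 ± 0.16 higher with 5 µM (adjusted p = 0.0096 and 0.0429), ZNF24 0.42 ± 0.10 and ZNF507 0.38 ± 0.08 (adjusted p = 0.0217 and 0.0124). ZNF45 and ZNF672 fell by 0.48 ± 0.12 and 0.46 ± 0.12 (adjusted p = 0.0329 and 0.0406). At T4 the one call was ZNF367, at 0.61 ± 0.13 (adjusted p = 0.0495), where 0.442% of all tested genes were called. That call was lost on leaving out any of the 6 arrays. At T20 the calls numbered 3 on values as deposited and 0 with the median of probe sets, where the difference of ZNF45 was 0.11. Scaled to the poly-A controls, which were 0.39 higher with 5 µM than with 0.5 µM at T20, 0 members were called higher and 56 lower, beside 31 higher and 5439 lower among all tested genes.

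In cells without digoxin, many members were higher in vehicle cells at T4 than in untreated cells at T0. Here, and between T20 vehicle cells and untreated cells at T16, time and vehicle change together and cannot be told apart. Of the 146, 38 rose and 9 fell, 32.2% where 17.5% of all tested genes were called, 8.59% higher and 8.94% lower, and the median difference was 0.21 against 0. With the median of probe sets 12 rose and 3 fell, and scaled to the poly-A controls 26 rose and 4 fell. All tested genes gave 287 rises and 387 falls, and 599 rises and 476 falls, in the same order. Of the 118 members in no role list, 34 rose and 3 fell. ZNF490 had 11.25, 11.34 and 11.19 in T4 vehicle cells, against 9.75, 9.80 and 9.92 at T0, and rose by 1.43 ± 0.14 (adjusted p = 5.69e-07). The KRAB gene ZNF627 had 8.40, 8.53 and 8.74, against 7.36, 7.07 and 7.09, and rose by 1.39 ± 0.17 (adjusted p = 1.18e-05). Neither gene's groups overlapped. The T4 vehicle arrays also served the T4 digoxin comparisons and the comparison of the vehicle groups. The member medians there, -0.19 with 5 µM, -0.11 with 0.5 µM and -0.16 between the vehicle groups, are thus not independent of the 0.21 here.

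ZNF367 went the other way, with 11.71, 12.10 and 11.96 in T4 vehicle cells against 13.31, 13.21 and 13.23 at T0, and fell by 1.33 ± 0.13 (adjusted p = 8.65e-07). ZNF281 fell by 0.82 ± 0.11 (adjusted p = 2.04e-05) and ZNF143 by 0.50 ± 0.11 (adjusted p = 0.00328). These 3 genes rose with digoxin at T4, measured against the same vehicle arrays, so the opposite signs are not independent.

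In untreated cells, 27 members rose and 28 fell at T16 against T0, 37.7% where 31.6% of all tested genes were called, 14.9% higher and 16.7% lower. Scaled to the poly-A controls, which were 0.24 higher at T16, 10 rose and 47 fell. Among all tested genes 434 rose and 3341 fell on that scale. ZNF449 had 9.56, 9.54 and 9.19 at T16, against 7.65, 7.17 and 7.17 at T0, and rose by 2.10 ± 0.23 (adjusted p = 1.46e-06), the largest rise among the members in any of the 12 comparisons. ZNF35 had 7.65, 7.89 and 7.39 at T16, against 9.18, 8.83 and 9.22 at T0. It fell by 1.43 ± 0.13 (adjusted p = 1.35e-07), and ZNF800 fell by 1.16 ± 0.11 (adjusted p = 1.34e-07).

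In T20 vehicle cells against untreated cells at T16, 21 members rose and 13 fell, 23.3% where 22.8% of all tested genes were called, 11.3% higher and 11.5% lower. With arrays centred on their medians 17 rose and 17 fell, and on values as deposited 15 rose and 18 fell. All tested genes gave 1141 rises and 1578 falls, and 1051 rises and 1604 falls, in the same order. Scaled to the poly-A controls, which had a difference of -0.43, 89 rose and 2 fell. Among all tested genes 5938 rose and 113 fell on that scale. ZNF35 rose by 1.22 ± 0.13 (adjusted p = 2.97e-06), with 8.79, 8.78 and 9.03 in T20 vehicle cells, and ZNF449 fell by 1.04 ± 0.23 (adjusted p = 0.00305). The 3 T16 arrays are shared with the comparison against T0. Between the vehicle groups, 1 member, ZNF367, rose at T20 against T4, by 0.63 ± 0.13 (adjusted p = 0.00383). In the same comparison 17 fell, 12.3% in all where 14.1% of all tested genes were called, 6.66% higher and 7.42% lower. With poly-A scaling, 1 rose and 2 fell, beside 833 rises and 109 falls among all tested genes, and with the median of probe sets 1 member was called. ZNF407 fell most in the comparison as first given, by 0.92 ± 0.15 (adjusted p = 0.000362).

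**Figure D4:**
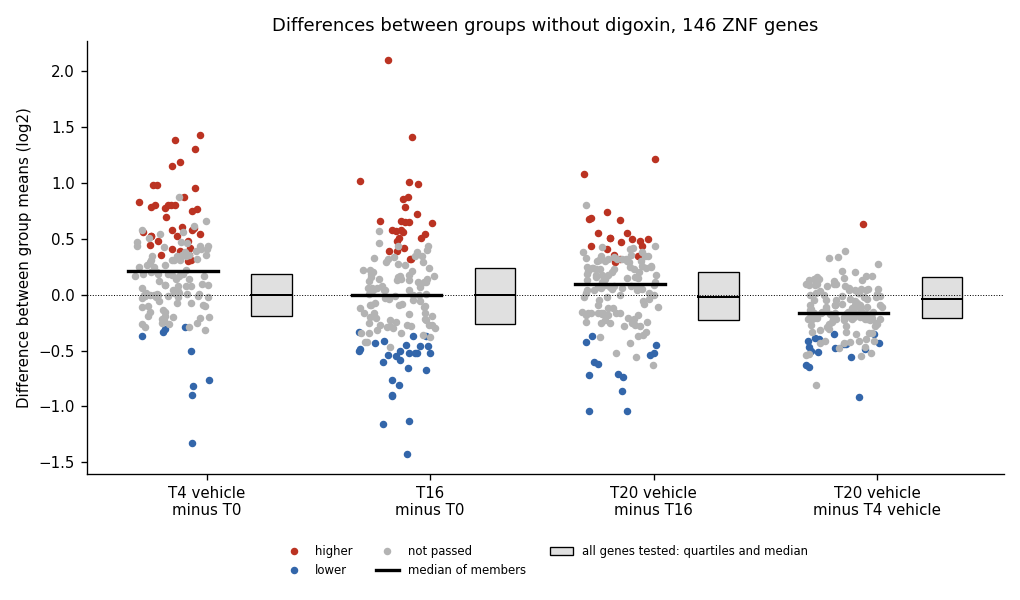
Differences (log2) between groups without digoxin for the 146 members, of which the first and the third set vehicle cells against untreated cells, 1 point per gene, coloured as rising, falling or not passing, with the median of members as a line and the quartiles of all tested genes as a box. The member median is 0.21 for T4 vehicle minus T0 and -0.16 for T20 vehicle minus T4 vehicle.

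**Figure D5:**
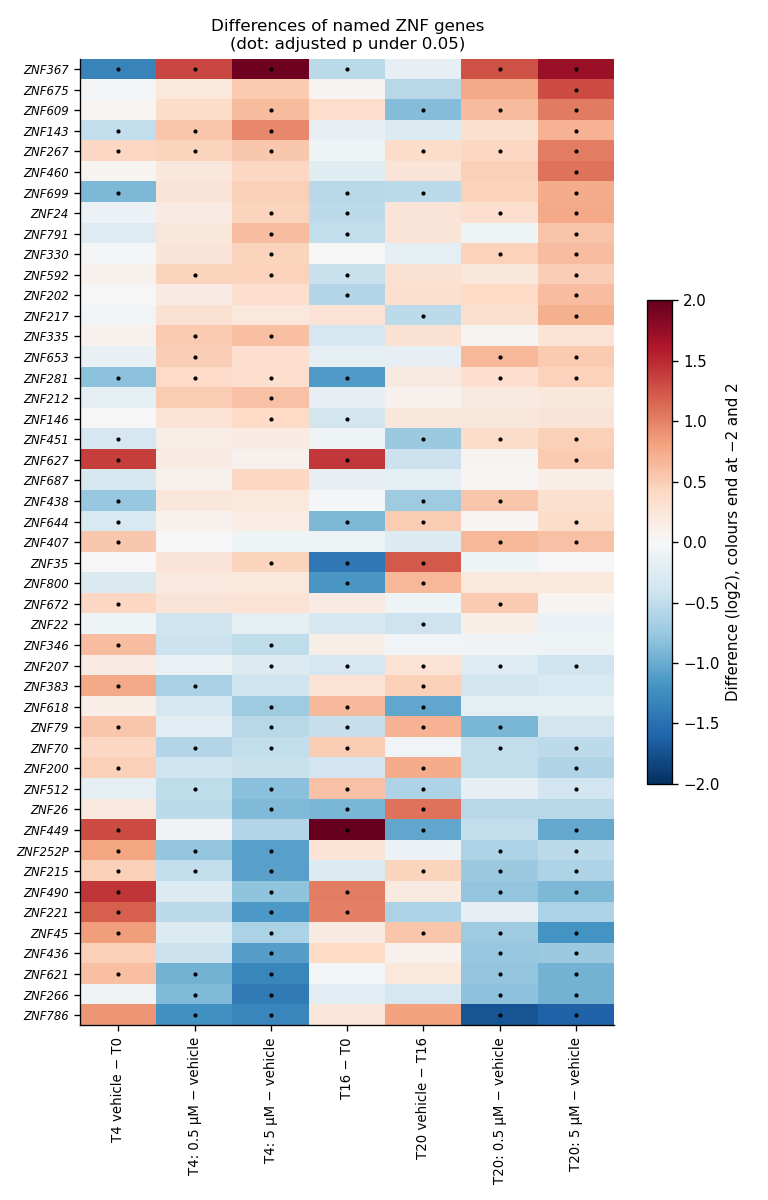
Differences (log2) of 47 named members in 7 comparisons, red for higher and blue for lower, with a dot where the adjusted p was under 0.05. ZNF367 is at the top and ZNF786 at the bottom, sorted by the sum of their 5 µM differences.

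Other zinc finger families and the KRAB corepressors were read for comparison. Of the other 370 ZNF genes, 235 passed the filter, and with 5 µM 8 rose and 49 fell at T20 and 8 rose and 57 fell at T4, with medians of -0.23 and -0.28. Of 34 ZBTB genes tested, whose fingers are joined to a BTB domain, 12 rose and 3 fell at T20 and 13 rose and 4 fell at T4. On the poly-A scale, 2 ZBTB genes rose and 19 fell at T20, and 3 rose and 6 fell at T4. That scale called 82.4% of all tested genes at T20 and 26.5% at T4, mostly lower. Of 13 ZFP genes tested, 1 rose and 5 fell at T20 and 1 rose and 7 fell at T4. Of 6 ZKSCAN genes, 1 rose and 3 fell at T20 and 1 rose and 2 fell at T4, and of 12 ZSCAN genes 1 rose and 3 fell at T20 and 0 rose and 1 fell at T4. All tested genes gave 12.9% higher and 13.2% lower at T20, and 9.18% and 12.9% at T4. Of 19 KRAB corepressor genes, TRIM28 and SETDB1 among them, 1 rose and 2 fell at T20 and 2 rose and 2 fell at T4, with medians of 0.01 and -0.02. With poly-A scaling, 0 corepressor genes rose and 18 fell at T20, and 0 rose and 4 fell at T4, beside the same all-gene shares. CBX1, a heterochromatin protein gene, rose by 0.40 ± 0.10 at T20 and 0.32 ± 0.10 at T4 (adjusted p = 0.00572 and 0.0268). PPHLN1, of the HUSH silencing complex, fell by 0.40 ± 0.10 at T20 (adjusted p = 0.00704), with -0.29 ± 0.10 at T4 not passing. MPHOSPH8, also of HUSH, and MORC2, which works with it, fell by 0.64 ± 0.14 and 0.43 ± 0.10 at T4 (adjusted p = 0.00295 and 0.00534). Their 5 µM differences at T20, -0.38 ± 0.14 and -0.19 ± 0.10, did not pass.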

How the data were processed

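Expression was measured with 24 Affymetrix Human Gene 2.0 ST arrays. Per the series' design text, the authors normalised the raw data with Robust Multi-Average in the GIANT tool suite, and limma is named in the submitters' processing notes. No version of either was stated in the sources. The values the authors deposited are log2 values of 352859 probe sets. GEO's platform annotation gave a single symbol to 259224 probe sets, several to 13116 and none to 80519, and 1726 symbols were updated through RefSeq. Array medians ranged from 6.25 to 6.38, so probe sets were quantile normalised, and median polish gave 1 value per gene. The test took in every gene with a group mean of at least 6, the median over genes. limma 3.58.1 in R 4.3.3 fitted the 8 group means over all 24 arrays, with 16 residual and 3.06 prior degrees of freedom, two-sided tests and Benjamini-Hochberg adjustment over all tested genes, for 12 comparisons. The number of arrays limits the precision.

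The members and gene lists were chosen with earlier results of these data known. Genes named in the text are, per direction, the 6 members with the largest differences for every digoxin contrast, and 4 for every other one, among those that passed without overlap of groups, the highest, lowest and threshold members, those with the widest range, and up to 4 members of each role list. Genes outside this rule, among them ZNF2, ZNF318, ZNF649, ZNF767P and those listed as shared between times, were named after their values were seen. Alternatives were the median of probe sets, 3 other scalings, no filter, only the groups compared, a replicate block, another variance model and leaving out each array. The script was tested on simulated data. No explanation was tested.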

Additional observations from a re-analysis of the deposited data

How the results depend on the processing

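Summarising genes by the median of probe sets lowered the counts of members called to 13 for 5 µM and 4 for 0.5 µM at T4, 21 and 9 at T20, 0 for either dose difference, 27 for T16 against T0, 15 for T4 vehicle against T0, 9 for T20 vehicle against T16 and 1 for T20 vehicle against T4 vehicle, and it turned ZNF45 in the T20 dose difference to 0.11 and ZNF451 to 0.06 at T4 vehicle against T0 and to 1.03 at T20 vehicle against T16. Scaling to poly-A controls gave 116 and 64 members called for 5 µM and 0.5 µM at T20, beside 82.4% and 26.6% of all tested genes. This scaling gave 15 for 0.5 µM at T4, beside 5.56%, and 12 for the T20 minus T4 difference of 5 µM, beside 12.1%. For the T20 dose difference it gave 56 (0 higher and 56 lower), beside 46.5%. It gave 30 for T4 vehicle against T0, beside 9.14%, 91 for T20 vehicle against T16, beside 51.4%, and 3 between the vehicle groups, beside 8.01%. It turned these 5 µM differences at T20: ZNF143 -0.01, ZNF202 -0.06, ZNF217 -0.02, ZNF281 -0.26, ZNF330 -0.08, ZNF407 -0.07, ZNF451 -0.24, ZNF592 -0.23, ZNF627 -0.20, ZNF644 -0.35, ZNF653 -0.17 and ZNF791 -0.16. It also turned ZNF24 for 0.5 µM at T20 to -0.00 and ZNF22 at T20 vehicle against T16 to 0.01. Without the filter, where more genes enter the adjustment, the counts were 18 and 11 for 0.5 µM at T20 and T4, 2 and 0 for the dose differences at T20 and T4, and 11 between the vehicle groups. Fitting only the groups compared, with fewer arrays, gave 14 for 0.5 µM at T20, 0 for either dose difference, 27 for T4 vehicle against T0, 20 for T20 vehicle against T16 and 7 between the vehicle groups. Values as deposited gave 3 and 0 for the dose differences at T20 and T4, and centring on the array median gave 0 at T4. The cause of these shifts was not tested beyond what each alternative changes.

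Leaving out 1 array at a time gave 39 to 47 members called for 5 µM and 11 to 17 for 0.5 µM at T4, 48 to 55 and 18 to 26 at T20, 3 to 7 and 0 to 0 for the dose differences at T20 and T4, 0 to 1 and 0 to 0 for the T20 minus T4 differences at 5 µM and 0.5 µM, 45 to 53 for T16 against T0, 29 to 42 for T4 vehicle against T0, 23 to 34 for T20 vehicle against T16, and 11 to 21 between the vehicle groups. Counts moved by over 1.5 times for 0.5 µM at T4 without 0.5 µM replicate 1, 2 or 3 (15, 15 and 11) or vehicle replicate 1 or 2 (13 and 12), and for 0.5 µM at T20 without 0.5 µM replicate 1 or 3 (18 and 19) or vehicle replicate 1 (20). They did so for the T20 dose difference without 5 µM replicate 1 (4) or 0.5 µM replicate 1, 2 or 3 (3, 4 and 3), for T4 vehicle against T0 without T4 vehicle replicate 2 (29), and between the vehicle groups without T20 vehicle replicate 3 or T4 vehicle replicate 2 (11 each). Replicate numbers did not pair the arrays: in 0 of 16 pairs of groups did every same-numbered pair of arrays correlate over 0.1 in its deviations from the group means, with correlations from -0.17 to 0.17. With the replicate block the T4 dose difference had 0 members called, and no other count moved by over 1.5 times. Signal over background is not in the values used, so probe sets near it are limited only by the filter.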
